A study of Mus musculus with 4 samples.

Results

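The genes described here are 8 long genes of neuronal adhesion, axon guidance and synapse scaffolding: Cntn4, Cadm2, Negr1, Opcml, Tenm4, Nrg3, Dcc and Dlg2. They are 8 of 21627 coding genes on the autosomes and the X chromosome, and they were chosen by the number of ATF4 peaks inside them in the Opa1 knock-down list, together with their length and function. Their knock-down peak numbers are therefore a description with no test. Binding sites of the transcription factor ATF4 were mapped by ChIP-seq, in which DNA cross-linked to an immunoprecipitated protein is sequenced. The cells were primary cortical neurons from E14.5-15 embryos of CD1 mice, an outbred stock. The neurons were cultured with the mitotic inhibitor cytosine arabinoside at 2 µM, transduced with lentivirus on day 6 and harvested on day 11. In the control group (labelled WT) the short hairpin RNA was shControl. In the knock-down group (labelled Opa1 knock-down) it was shOpa1, which targets the gene of a GTPase that fuses inner mitochondrial membranes. The series held 4 libraries with 1 per group, and the deposited peak lists of the 2 ATF4 immunoprecipitations are used here. The IgG and input libraries, both from shControl neurons, were not analysed here. No label says whether neurons of several embryos were pooled. Peaks do not measure expression, so the cell type and the knock-down were not checked.

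The control list held 93 peaks with 2424 tags in them and the knock-down list 952 peaks with 33317.9 tags. A tag is a read counted in a peak (a few deposited values are not whole numbers), and fold is the authors' enrichment of a peak over the caller's background. Tags were not scaled for depth, which is unknown. Absence from the control list therefore does not show that a site was free of ATF4. With 1 library per condition no difference between conditions was tested, and all intervals cover counting error only.

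ATF4 is a basic leucine zipper factor that is made in larger amounts during the integrated stress response. It pairs with C/EBP family partners on composite sites and is best known for genes of amino acid supply and protein synthesis. The 8 genes described here encode proteins of another kind. They sit at the cell surface or beneath the synaptic membrane. There they hold axons and dendrites together, steer growth cones, anchor receptors or, for Nrg3, act as a ligand. Genes of this kind are among the longest in the mouse genome because of their very large introns.

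The 8 genes ran from 740 kb (Tenm4) to 1973 kb (Dlg2) and covered 8.8 Mb on 7 chromosomes, none of them the X chromosome. All 8 held at least 2 knock-down summits, 20 in all, and 1 gene, Nrg3, held a control summit. Of all coding genes, 2.02% held at least 1 knock-down summit and 0.171% held at least 2, and 0.199% held a control summit. Among the 103 other coding genes at least as long as Tenm4, 37.9% held at least 1 knock-down summit, 3.88% at least 2, and 2.91% a control summit. Because peak number chose the genes, nothing is read from these shares.

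Of the 7 genes with a listed transcription start, Tenm4 alone had a peak over one, and the sequence around both of its listed starts is shown for that reason. The RefSeq promoter table (GRCm38.p6, which has the coordinates of mm10) gives windows from 250 bases before a start to 50 bases after it. It listed 11 windows for 7 of the 8 genes, and Dcc was not among them. The first Tenm4 window, at chr7:96170994-96171293 on the plus strand, lay wholly inside a knock-down peak. The second, at chr7:96211421-96211720 on the plus strand, starts transcription 40.4 kb further on and met no peak. The start is base 251 of each window. Capitals mark a match to TTGCATCA, a C/EBP-ATF composite sequence, with 1 mismatch on the plus strand. The first window also holds unmarked matches with 1 mismatch on the minus strand, printed as tgctgcaa and tgaagcaa. The second window holds none within 1 mismatch.
Tenm4 start with a peak: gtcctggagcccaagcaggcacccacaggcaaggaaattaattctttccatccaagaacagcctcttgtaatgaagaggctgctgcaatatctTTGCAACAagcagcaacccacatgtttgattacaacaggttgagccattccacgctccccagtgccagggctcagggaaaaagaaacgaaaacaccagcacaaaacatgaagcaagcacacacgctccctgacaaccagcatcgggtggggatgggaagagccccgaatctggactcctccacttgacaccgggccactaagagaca
Tenm4 start without a peak: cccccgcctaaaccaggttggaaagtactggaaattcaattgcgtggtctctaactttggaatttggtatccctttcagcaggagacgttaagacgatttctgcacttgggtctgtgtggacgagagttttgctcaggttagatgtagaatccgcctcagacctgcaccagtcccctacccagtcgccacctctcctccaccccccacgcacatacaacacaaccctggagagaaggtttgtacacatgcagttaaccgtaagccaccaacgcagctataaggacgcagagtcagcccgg

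The capitals, bases 94 to 101, read TTGCAACA and differ from TTGCATCA by T6A, counted from the 5′ end of the motif. On both strands, 16.9% of all 32851 promoter windows held this motif with at most 1 mismatch. Among windows of the 8 genes 2 of 11 did, 1 in Tenm4 and the other in Dlg2; this looser search was chosen after the sequence was seen. The stricter searches covered both strands as well. TGATGNAAN was in 3.95% of all windows, TTGCATCA (whose reverse complement begins a TGATGNAAN match) in 0.895% and TGACGTCA in 1.79%, and none of the 3 was in the 11 windows of the 8 genes. For scale, 99 of the 32851 windows overlapped a knock-down peak (0.301%). Of those 99, 47.5% held TTGCATCA with at most 1 mismatch and 30.3% held TGATGNAAN. The Tenm4 summit lay 225 bp beyond the window printed, so the bases under it are not among those searched.

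**Figure D1:**
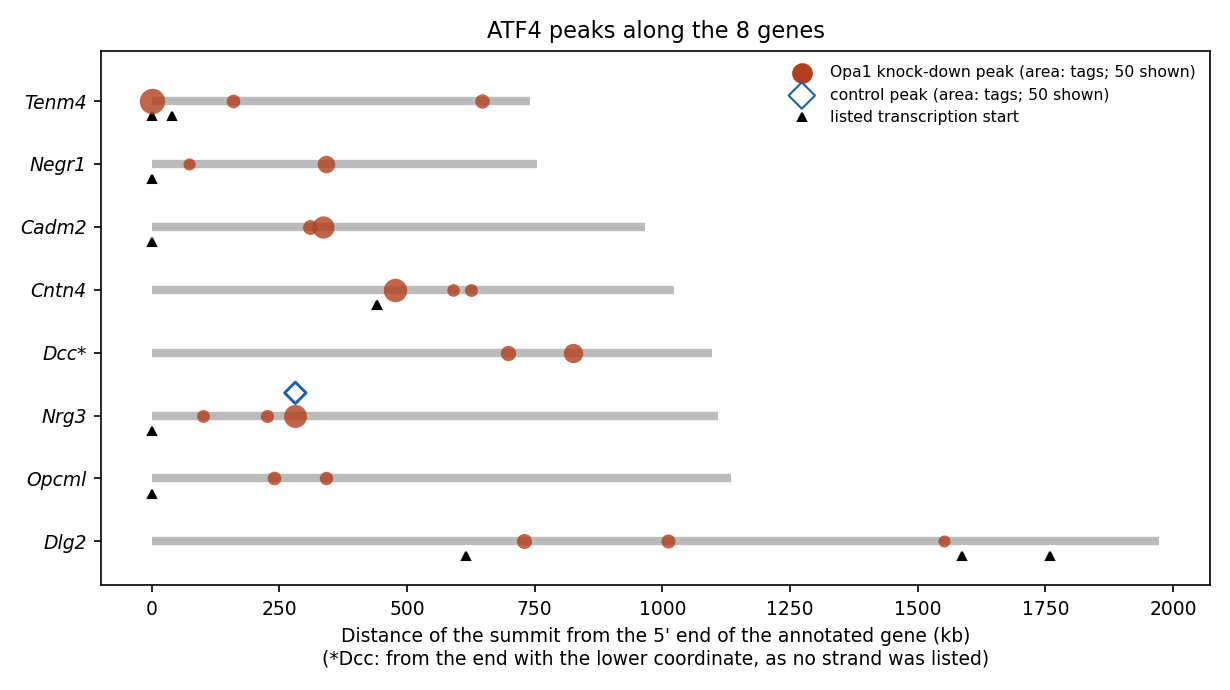
Knock-down peaks (filled circles) and the control peak (open diamond) along each gene, with the distance of the summit from the annotated 5′ end in kb on the x axis (Dcc: from its lower coordinate), symbol area in proportion to tags and triangles at listed transcription starts. Of the 18 knock-down peaks in genes with a listed start, the first Tenm4 peak alone sits at one, and the 1 control peak sits over the largest Nrg3 peak.

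Among the cell adhesion genes, Cntn4 encodes contactin 4, an immunoglobulin superfamily protein tethered to the membrane by a lipid anchor and active in axon guidance. Its gene (chr6:105677632-106700141, 1023 kb, plus strand) held 3 knock-down peaks and 0 control peaks. The strongest, at chr6:106153080-106154108, had 79 tags (95% Poisson interval 62.5 to 98.5) and a fold of 15.78, and ranked 43 of 952 by the authors' order. It lay 34.7 kb downstream of the nearer of the 2 listed starts, which are themselves well inside the annotated gene. The other Cntn4 peaks had 23 and 24 tags with folds of 8.6 and 8.13, and were 148 and 184 kb downstream of a listed start. All 3 summits fell within 149 kb, or 14.6% of the gene's length. The large peak was the 7th widest of the knock-down list at 1029 bp, whereas the other Cntn4 peaks were 380 and 497 bp wide.

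Cadm2 encodes a synaptic cell adhesion molecule, also of the immunoglobulin superfamily. Its gene (chr16:66655416-67620917, 966 kb, minus strand) held 2 knock-down peaks and 0 control peaks, at 32.1% and 34.8% of its length as transcribed. The stronger, at chr16:67284417-67285224, had 71 tags (55.5 to 89.6), a fold of 17.21 and rank 42. The weaker had 32 tags (21.9 to 45.2) and a fold of 9.08. Their summits were 26.4 kb apart, the closest pair of the 20, at 310 and 336 kb downstream of the listed start.

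Negr1 and Opcml are both IgLON genes, which encode small lipid-anchored adhesion proteins of neurons. Negr1 (chr3:156561790-157316464, 755 kb, plus strand) held 2 knock-down peaks and 0 control peaks. The peak at 45.2% of its length had 44 tags (32 to 59.1) and a fold of 8.6, and that at 9.73% had 21 tags (13 to 32.1) and a fold of 4.835. The latter ranked 915 and was the lowest fold among the 20. It was also the 1 of the 20 whose deposited length was shorter than its interval, a second form of entry whose score is on another scale. Opcml (chr9:27790716-28925410, 1135 kb, plus strand) held 2 knock-down peaks and 0 control peaks, and had the fewest tags summed over a gene (53), with 27 tags (17.8 to 39.3) and 26 tags (17 to 38.1) and a fold of 7.17 at both. They lay 238 and 341 kb downstream of the listed start and ranked 562 and 802. A further knock-down peak (28 tags, fold 6.61) lay 36.2 kb before the annotated start of Opcml in no coding gene, and it was the 1 peak of either list within 100 kb outside any of the 8 genes.

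Tenm4 encodes a teneurin, a large transmembrane protein that binds partners on the opposing cell. It is the shortest of the 8 genes (chr7:96171244-96911093, 740 kb, plus strand). Its 3 knock-down peaks gave it 4.05 summits per Mb (0.836 to 11.9), the first place of 111 coding genes of its length or more. Tenm4 was chosen by peak number and itself sets that length limit, so nothing is read from this place. The peak at its start, chr7:96170801-96172233, reached from 443 bp before the listed start to 989 bp after it, with the summit 274 bp downstream. It held 93 tags (75.1 to 114), the most of the 20, and with 1433 bp was the second widest peak of the list. Its fold was 11.95, which is rank 160 by fold but rank 23 by tags, and it held 64.9 tags per kb against 96 per kb at the strongest Nrg3 peak. The other Tenm4 peaks lay at 21.4% and 87.3% of the gene with 27 and 30 tags and folds of 7.65 and 8.13. No control peak was called in Tenm4.

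Nrg3 encodes a neuregulin, a ligand with an epidermal growth factor domain that acts through the receptor ErbB4. Its gene (chr14:38365102-39473235, 1108 kb, minus strand) held 3 knock-down peaks and the 1 control peak of the 8 genes. In the control list the peak at chr14:39191848-39192353 had 33 tags (22.7 to 46.3) and a fold of 10.04, and ranked 15 of 93. In the knock-down list the peak at chr14:39191748-39192539 had 76 tags (59.9 to 95.1) and a fold of 20.08, and ranked 34 of 952. The summits were 43 bp apart and lay 281 kb downstream of the listed start. The fold was 2 times the control fold and the highest of the 20, but both come from separate calls with unknown settings, so the ratio describes the lists and is not a measured change in binding. The other Nrg3 peaks were in the knock-down list alone, with 25 and 24 tags, folds of 9.56 and 7.17, and summits 226 and 99.7 kb downstream of the start. The first of these also lay inside Gm20642, an annotated long non-coding RNA gene, the 1 case among the 20 where a summit fell in a further annotated gene. The 3 sites lay at 9.01%, 20.4% and 25.4% of Nrg3 as transcribed.

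Dcc encodes a receptor for netrin that guides commissural axons. Its gene (chr18:71253613-72351228, 1098 kb) held 2 knock-down peaks and 0 control peaks. The stronger had 54 tags (40.6 to 70.5) with a fold of 14.34 and rank 87, and the weaker 34 tags (23.5 to 47.5) with a fold of 8.6 and rank 408. Their summits were 127 kb apart and 273 and 400 kb from the nearer gene end.

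Dlg2 encodes PSD-93, a scaffold of the postsynaptic density that anchors glutamate receptors and potassium channels. It is the longest of the 8 genes (chr7:90476188-92449246, 1973 kb, plus strand) and had the lowest density of summits, 1.52 per Mb (0.314 to 4.44). Its 3 knock-down peaks had 33, 29 and 21 tags and folds of 12.43, 8.6 and 6.95. They were spread over 823 kb, or 41.7% of the gene, with at least 281 kb between neighbours. The last, at chr7:92027781-92028226, lay 34.4 kb upstream of the second of 3 listed starts, and was the 1 peak of the 18 with a listed start in its gene that was upstream of the nearest one. No control peak was called in Dlg2.

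**Figure D2:**
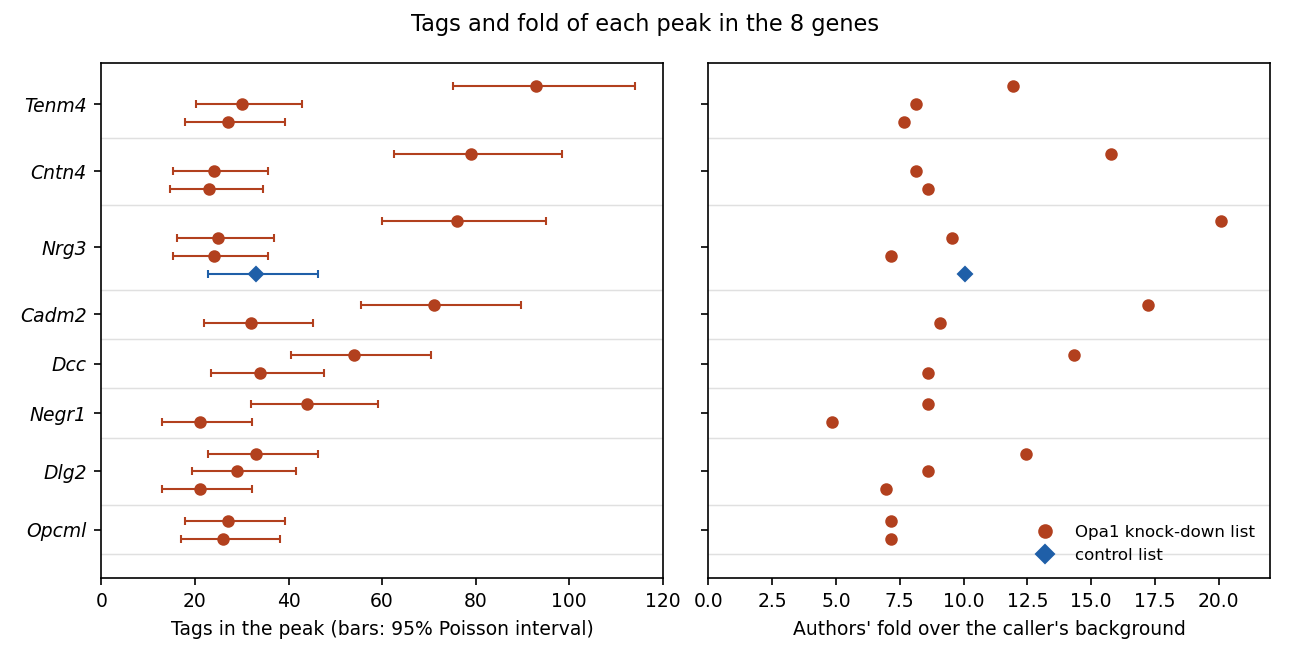
Tags with 95% Poisson intervals (left) and the authors' fold (right) of each peak, by gene, for the knock-down list (circles) and the control list (diamond). In Tenm4, Cntn4, Nrg3 and Cadm2 the interval of the top peak lies above those of the gene's other knock-down peaks, and in Dcc, Negr1, Dlg2 and Opcml it overlaps the next one.

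By raw tags, 1 site stood above the others of its gene in 4 of the 8 genes. In Tenm4, Cntn4, Nrg3 and Cadm2 the top knock-down peak had 2.22 to 3.29 times the tags of the next, with intervals that did not overlap. In Negr1 the top peak had 2.1 times the tags of the other, in Dcc 1.59, in Dlg2 1.14 and in Opcml 1.04 times, with overlapping intervals in all 4. The top peaks of Tenm4, Cntn4, Nrg3 and Cadm2 held 319 of the 793 tags in the 20 peaks (40.2%). Their own intervals overlapped one another, so their order by tags is not resolved. The other 16 peaks had 21 to 54 tags with a median of 27. Tags also grow with peak width, which was 1433, 1029, 792 and 808 bp at the top Tenm4, Cntn4, Nrg3 and Cadm2 peaks against a median of 603 bp over the 20. Per kb of peak the top peak was higher than the next by tags in all 8 genes, and the 4 genes no longer stood apart. The ratio was 1.67 in Cadm2, 1.59 in Cntn4, 1.58 in Negr1, 1.57 in Dcc, 1.55 in Nrg3, 1.4 in Tenm4, 1.26 in Dlg2 and 1.18 in Opcml. For the same pairs of peaks the fold differed by 2.1 times in Nrg3, 1.94 in Cntn4, 1.9 in Cadm2, 1.78 in Negr1, 1.67 in Dcc, 1.47 in Tenm4 and 1.45 in Dlg2, and was equal in Opcml. The place of Tenm4 among the 4 therefore holds for raw tags and not for tags per kb or fold. Each ratio takes the next peak by raw tags. In Tenm4 and Cntn4 the remaining peak (27 tags over 457 bp and 23 over 380 bp) held more tags per kb than that one. In Cntn4 its fold was also higher (8.6 against 8.13). Ratios to these remaining peaks would be smaller.

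Position within the gene was not part of the choice. Of the 20 knock-down summits, 19 were more than 50 kb from either gene end, and the median distance to the nearer end was 323 kb. Each gene is at least 740 kb long, so most of its length lies more than 50 kb from an end. These values were not set against other long genes, and nothing is read from them. In the 7 genes with a known strand, 13 of 18 summits lay before the middle of the annotated gene, counted from its 5′ end, and 5 after it. The listed starts of Cntn4 and Dlg2 lie well inside the annotated gene, so this is not the position along a listed transcript. The split was not set against other long genes. The distance to the nearest listed start of the same gene was 274 bp for the first Tenm4 peak, 34.4 kb for the next nearest and 205 kb in the median. Within 1 kb of any listed start lay 1 of these 18 summits (5.56%, Clopper-Pearson interval 0.141 to 27.3). The same held for 110 of 889 other knock-down summits (12.4%, 10.3 to 14.7) and for 0 of 44 in the other long genes, with an interval of 0 to 8.04% by the same method. The interval of the 18 overlaps both of the others. That of the 44, which are also among the 889, ends below the interval of the 889, and this was not tested. Chromosome 18, with no listed start, is left out of these counts. Whether a summit fell in an exon or an intron could not be told, as exons were not used here.

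The 20 peaks did not reach the highest folds of the list, and their median fold was close to that of the other knock-down peaks. Their fold ran from 4.835 to 20.08 with a median of 8.6, against 3.176 to 52.11 with a median of 8.13 in the other 932 knock-down peaks and a median of 8.365 in the 44 peaks of other long genes. A fold of at least 10 was reached by 6 of 20 (30%) and 29.9% of the others. Median tags were 29.5 and 29. Among the first 93 knock-down peaks in the authors' order were 5 of the 20 (25%), the top sites of Nrg3, Cadm2, Cntn4, Tenm4 and Dcc, against 88 of the other 932 (9.44%) and 3 of the 44 in other long genes (6.82%). The highest of the 5 ranked 34. A control peak overlapped 1 of the 20 (5%) and 79 of the other 932 (8.48%).

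**Figure D3:**
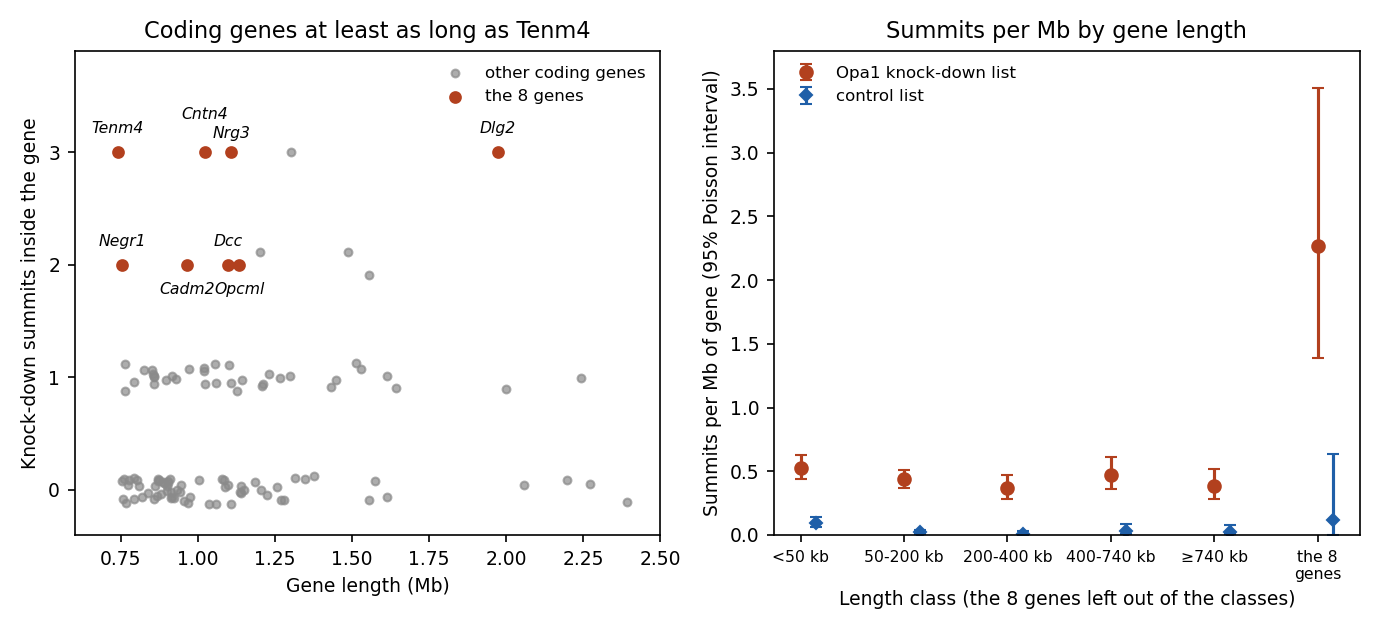
Left: knock-down summits inside each coding gene of at least Tenm4's length against gene length in Mb, with the 8 genes in colour and small vertical offsets for the others. Right: summits per Mb of gene by length class with 95% Poisson intervals, where the classes without the 8 genes lie between 0.368 and 0.526 in the knock-down list.

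Set against length, longer classes of genes had a larger share of members with a knock-down summit. The density of knock-down summits per Mb stayed in a narrow range. The share of other coding genes holding a summit was 0.785% under 50 kb, 3.8% from 50 to 200 kb, 8.93% from 200 to 400 kb, 21.7% from 400 kb up to the length of Tenm4 and 37.9% beyond it. Knock-down summits per Mb of gene in the same classes were 0.526, 0.436, 0.368, 0.471 and 0.387. The 8 genes together had 2.27 per Mb (1.39 to 3.51), a value that follows from how they were chosen. Control summits per Mb in these classes varied more, at 0.0931, 0.0216, 0.00574, 0.0325 and 0.0264, and rested on 23, 8, 1, 4 and 3 peaks. Of the 103 other long genes 64 held no knock-down summit and 35 held 1. Pde4d, a cyclic AMP phosphodiesterase gene, held 3 (folds 11.47, 11.47 and 5.26), and Magi2, Robo2 and Prkg1 held 2 each. Auts2 followed with 1 summit and the most tags among such genes (154, fold 30.12). By summits per Mb, Pde4d (2.3) stood between Negr1 (2.65) and Cadm2 (2.07), and Prkg1 (1.67) between Opcml (1.76) and Dlg2. Within the 8 genes the length differed by 2.67 times, and those with 3 summits included both the shortest and the longest.

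The wider families were described through 83 relatives listed by family. A knock-down summit was inside 13 of them (15 summits) and a control summit inside 1, Magi2. Of the 25 relatives at least as long as Tenm4, 10 held a knock-down summit, and of the 58 shorter relatives 3 did. Of all 103 other coding genes at least as long as Tenm4, which include these 25, 37.9% held one. No other IgLON gene had a summit: Lsamp (2197 kb), Ntm (969 kb) and Iglon5 (17 kb) held 0 in both lists, as did Cadm1, Cadm3 and Cadm4. Of contactins and their Cntnap relatives 2 of 12 held 1 each, Cntnap2 (fold 7.17) and Cntnap5c (8.34), while Cntn5, at 1271 kb longer than Cntn4, held 0. Of teneurins and their partners 2 of 9 did, Tenm2 (7.65) and Tenm3 (11.47). Among netrin and slit genes and their receptors 3 of 19 held summits: Robo2, a slit receptor, 2 (folds 9.56 and 6.21), Robo1 1 (7.65) and Slit3 1 (6.69). Of neuregulins and receptors Nrg2 (9.56) alone of 5 did. Among synaptic scaffolds 2 of 13 did, Magi2 with folds of 25.18 and 5.22 and Dlgap1 with 12.43, and none of Dlg1, Dlg3 and Dlg4. Among the synaptic adhesion genes Nrxn3 and Lrrtm4 held 1 each, both with a fold of 9.56.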

How the data were processed

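ATF4 ChIP-seq was done on shControl and shOpa1 cortical neurons, after cross-linking with formaldehyde for 30 minutes and sonication to about 150 bp, per the labels' protocols. The authors' deposited lists give for each peak a position, rank, p-value score, fold (a ratio), length, summit and tag count. Peaks came from MACS2, per the series' design text, and build mm10, deepTools and MultiQC are also named, per the submitters' processing notes. The sources used here do not give the aligner, thresholds, depth or the control library of the calls. The lists were tied to libraries by the hairpin in their names.

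Coordinates were read as 1-based. A peak was placed in a gene by its summit, with RefSeq GRCm38.p6 gene limits, and lists were compared by overlap of at least 1 bp. Tags have exact Poisson and shares exact Clopper-Pearson intervals at 95%. Counting was tested on simulated summits: all 200 planted genes among 21627 were recovered. No difference was tested. Alternatives covered score, fold, placement, flanks, score form, list length and gene set. The members, relatives and motifs were chosen with earlier results of these data known. Named beside the 8 genes were relatives with a summit, up to 15 (1 of them is not reported here), and the 5 other long genes with the most summits (ties by tags); relatives and windows named without a summit, and Gm20642, were picked with their values in view. The planned motif search in peaks was replaced by one in promoter windows, as no genome sequence was used here. Software was pandas 2.3.3, scipy 1.17.1, numpy 2.4.6 and, for plots, matplotlib 3.10.9 under Python 3.11.15.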

Additional observations from a re-analysis of the deposited data

How the results depend on the processing

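Restriction to stronger peaks lowered the counts, since fewer peaks entered. With the higher-scoring 50% of each list, a fold of at least 10, or as many knock-down as control peaks, the 8 genes held 12, 6 and 5 knock-down peaks, or 1.36, 0.682 and 0.568 per Mb. The other long genes then had 0.185, 0.0968 and 0.0264 per Mb, and 19.4%, 9.71% and 2.91% of them held a peak. The last setting left 5 of the 8 genes with a peak. The 8 genes were chosen by peaks of this same list, so nothing is read from their distance to the other long genes under any setting. The median fold in the 8 genes was 15.06 with the fold minimum and 15.78 with the shortened list. The other 47 of 62 alternative values stayed within 1.5 times the value given (counts and fold) or within its 95% interval (densities and shares). The control peak in Nrg3 and its overlap with the knock-down peak were found under every alternative run on them. Reading coordinates from 0 changed none of the 6 values recomputed for the 8 genes. No paired analysis was possible because the conditions are represented by 1 library each. Depth is unknown, so what the control list could have missed is not known.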
